A study of Mus musculus with 9 samples.

Results

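The 10 chemokine genes described here are Ccl1, Ccl2, Ccl3, Ccl4, Ccl7, Ccl9, Ccl17, Ccl22, Cxcl2 and Xcl1, ligands that activated mast cells are known to make, chosen with earlier results of these data known. They were found by mapping the Ensembl gene identifiers of the count table to mouse symbols, and 10 of 10 were present among the 47643 genes in the table. RNA was sequenced from bone marrow-derived mast cells (BMMCs), which are primary mast cells grown from marrow of C57BL/6 mice in DMEM with 30% WEHI-3-conditioned medium, a source of interleukin-3, and 20% fetal bovine serum. The Control cells were untreated according to the study. The BSA cells carry the label IgE+BSA, meaning sensitization with anti-DNP IgE and challenge with DNP-BSA, the antigen that crosslinks IgE on its receptor. The BSA + luteolin cells received the same stimulation and the plant flavone luteolin, for which the labels give 10 μM and 24 h. That luteolin text stands on every sample, Control included, and the sources do not make clear whether luteolin came before or after the stimulation. Each group had 3 libraries, and nothing in the labels says whether these came from separate mice or cultures, so p-values measure only the spread between these samples.

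Chemokines are small secreted proteins that attract leukocytes by binding G protein-coupled receptors. Crosslinking of the IgE receptor on mast cells triggers granule release within minutes, followed by transcription of cytokines and chemokines. Ccl3 and Ccl4, also called MIP-1α and MIP-1β, attract monocytes, macrophages and T cells, and Ccl3 binds Ccr1. Ccl2 and Ccl7 recruit monocytes through Ccr2, Ccl1 binds Ccr8, Ccl17 and Ccl22 bind Ccr4 on T cells, Cxcl2 draws neutrophils through Cxcr2, Xcl1 binds Xcr1 on cross-presenting dendritic cells, and Ccl9 binds Ccr1.

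Library depth ranged from 9515004 to 24605689 counts on genes, with the lowest total in Control replicate 2. Expression is given as CPM, the counts of a gene scaled to a common library total after TMM normalization, and 3 counts, the upper limit that a count of 0 allows, corresponded to 0.121 to 0.29 CPM. Such limits cover counting error only. The 12 mast cell markers all passed the filter on low counts and summed to 59460 to 87870 CPM in Control, 64470 to 70870 CPM in BSA and 75620 to 86630 CPM in BSA + luteolin, so that BSA + luteolin lay above BSA. Single markers differed in direction between these 2 groups, with Fcer1a at 4587 to 4978 CPM in BSA and 5722 to 6883 CPM in BSA + luteolin, Tpsab1 at 469 to 611.1 and 218 to 219.6 CPM, and Hdc at 715.7 to 966.2 and 359.9 to 389.9 CPM. Control replicate 1 stood apart from the other Control libraries in 10 neutrophil marker genes, which summed to 272.7 CPM there and to 7.84 and 6.06 CPM in Control replicates 2 and 3. The sum was 196.4 to 216 CPM in BSA and 225.7 to 264 CPM in BSA + luteolin, so that Control replicate 1 lay above the BSA range and the other Control libraries far below it. The same split was seen in Mcpt8, a basophil protease, at 431.8 CPM in Control replicate 1 against 21.76 and 18.7 CPM in replicates 2 and 3, and in the mast cell proteases Mcpt4 (1752 against 201.2 and 196.7 CPM) and Cma1 (10120 against 4043 and 3552 CPM). In the BSA and BSA + luteolin libraries they lay between these Control values, at 292.2 to 368.1 CPM for Mcpt8, 1027 to 1575 CPM for Mcpt4 and 6390 to 9469 CPM for Cma1. Other basophil and mast cell markers were lower in Control replicate 1 than in replicates 2 and 3. Among them were Cd200r3 (687.7 against 1044 and 1022 CPM), Kit (1750 against 2303 and 2479 CPM) and Tpsab1 (402.3 against 731.8 and 696.7 CPM). The labels give no culture or batch, and whether Control replicate 1 was cultured differently from the others or mislabelled was not tested. For the 9 of the 10 chemokine genes that passed the filter on low counts, each Control comparison is therefore also given without Control replicate 1. It is also given with that library as the only Control. Macrophage and monocyte markers summed to 288.6 to 304.4 CPM in Control, 316.8 to 342 CPM in BSA and 318.4 to 358.1 CPM in BSA + luteolin. Dendritic cell markers summed to 59.97 to 92.41, 71.2 to 79.47 and 77.75 to 91.64 CPM, basophil markers to 1733 to 1952, 1540 to 1592 and 1686 to 1838 CPM, and lymphocyte markers to 2.43 to 4.48, 4.68 to 4.75 and 4.25 to 4.84 CPM in the same order. Of the 12 lymphocyte markers 4 had no count in any library, and of the 12 dendritic cell markers 1. The part of these mast cell and other markers in the results was not tested, and in bulk RNA fewer cells of a type cannot be told apart from less RNA per cell.

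The genes lie in 4 places in the mouse genome (GRCm38). Chromosome 11 holds 6 of them in 1.63 Mb, in the order Ccl2, Ccl7, Ccl1, Ccl9, Ccl3 and Ccl4, from 82035571 to 83664683. Ccl22 and Ccl17 are neighbours on chromosome 8, Cxcl2 is on chromosome 5 and Xcl1 on chromosome 1. Xcl1 shares 98 exon bases with Gm20743 on the opposite strand, and because the strand setting of the counting is not given, reads from both strands cannot be told apart. Ccl2 overlaps Gm17268 on the opposite strand, with 0 shared exon bases.

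Promoters are shown for Cxcl2, Ccl1 and Ccl3, which were lower with luteolin than in BSA, and for Ccl9, whose difference with luteolin did not pass the test. RefSeq promoters (GRCm38.p6) matched 7 of the 10 genes, without Ccl2, Ccl4 and Ccl7. Each sequence below is 200 bases on the gene's own strand, ending just before the RefSeq start, except for Cxcl2, where it ends 28 bases before that start because GENCODE places the start earlier. Capitals mark matches to the NF-kB consensus, and in Ccl9 also the AP-1 letters TGANTCA and the letters TATAAA. The positions are chr5:90903671-90903870 (plus strand), chr11:82179813-82180012 (minus), chr11:83649379-83649578 (minus) and chr11:83578637-83578836 (minus).
Cxcl2: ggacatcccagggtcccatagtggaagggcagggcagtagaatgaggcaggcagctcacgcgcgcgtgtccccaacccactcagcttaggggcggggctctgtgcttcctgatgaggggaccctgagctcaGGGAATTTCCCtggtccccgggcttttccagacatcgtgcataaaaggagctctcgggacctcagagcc
Ccl1: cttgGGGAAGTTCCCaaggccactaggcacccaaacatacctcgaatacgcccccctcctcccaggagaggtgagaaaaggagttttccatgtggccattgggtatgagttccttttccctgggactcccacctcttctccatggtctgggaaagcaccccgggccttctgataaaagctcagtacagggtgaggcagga
Ccl3: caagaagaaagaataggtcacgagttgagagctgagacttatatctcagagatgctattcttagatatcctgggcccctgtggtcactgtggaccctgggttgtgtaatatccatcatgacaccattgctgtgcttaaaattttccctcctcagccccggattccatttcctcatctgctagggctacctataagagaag
Ccl9: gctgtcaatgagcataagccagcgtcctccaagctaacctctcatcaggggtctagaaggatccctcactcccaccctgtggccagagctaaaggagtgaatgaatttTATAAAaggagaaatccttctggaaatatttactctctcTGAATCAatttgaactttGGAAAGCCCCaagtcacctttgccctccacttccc
The NF-kB consensus was found in the 300-base windows of 3 of 7 members, Cxcl2, Ccl1 and Ccl9, against 8.46% of 32841 mouse promoters. In Cxcl2 and Ccl1 the 2 matches on opposite strands overlap, from -97 to -87 and from -196 to -186 relative to the RefSeq start. TGANTCA occurred in 1 of 7 (7.81% of promoters), the NFAT core GGAAA in 6 of 7 (61.4%), TATAAA on the gene's strand in 1 of 7 (8.32%), and the CRE letters TGACGTCA and the EGR letters GCGNGGGCG in 0 of 7 (1.79% and 5.55%). Motifs were searched on both strands except TATAAA, and GGAAA overlaps the NF-kB match in Cxcl2 and Ccl9. The windows are shown as letters, and a match is not a binding site.

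The pentamer ATTTA, a core of AU-rich elements that are known to shorten the life of cytokine mRNAs, was counted after the stop codon of the longest coding transcript. Cxcl2 held 11, or 7.36 per kb, and Ccl3 held 5, or 12.2 per kb. Both lay far above the median of 1.34 per kb over 10800 tested genes with a coding transcript. Ccl4 held 2 (6.62 per kb), Ccl7 2 (4.6), Ccl2 1 (3.64), Ccl9 5 (2.03) and Ccl22 2 (1.1), while Ccl1 and Ccl17 held 0. The longer letters TATTTAT were present in 4 of the 9 members tested, Cxcl2, Ccl3, Ccl4 and Ccl22, and in 30.3% of all genes. The 28-base stretches with the most pentamers are shown for Cxcl2, at bases 881 to 908 after the stop codon, and Ccl3, at bases 141 to 168, with each ATTTA in capitals.
Cxcl2: cttATTTATTTAtctatgtATTTATTTA
Ccl3: ctcttcacttgaaattttATTTAATTTA

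BSA libraries held more chemokine RNA than Control libraries, and BSA + luteolin libraries lay between. The 10 genes took 0.154% to 0.23% of all counts in Control, 0.641% to 0.672% in BSA and 0.288% to 0.294% in BSA + luteolin, so the 3 ranges did not overlap. Of the 10 genes, 9 passed the filter on low counts, a median CPM above 1 over the 9 libraries, and were tested with 11560 genes in all by edgeR's quasi-likelihood test with Benjamini-Hochberg adjustment. Xcl1 did not pass. In BSA against Control, 5 of the 9 passed the adjusted p threshold of 0.05 as higher, against 2.25% of all genes tested, and 0 as lower, against 1.02%. By unadjusted p, 2 of the 9, Ccl17 and Ccl22, were under 0.05 as lower, against 9.67% of all genes, and DESeq2 called both lower, against 5.43%. Libraries of the 2 groups did not overlap, with BSA higher, for 7 of the 9, against 16.7% of all genes tested, and with BSA lower for 1, against 12.1%.

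**Figure D1:**
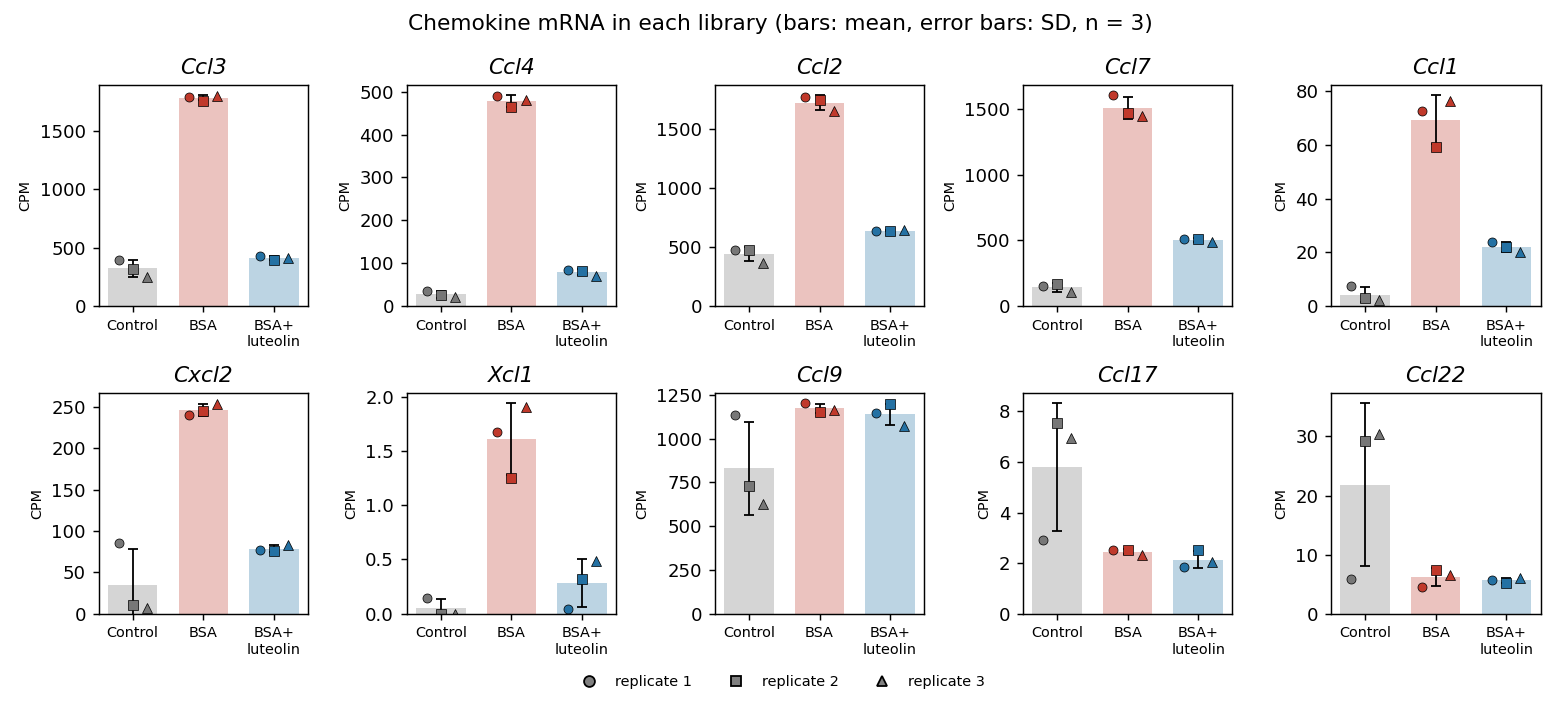
CPM of the 10 genes in each library, with the 3 groups on the horizontal axis, bars for the mean, error bars for the SD (n = 3; cut at 0) and 1 symbol per replicate. BSA libraries stood above all Control libraries for Ccl3, Ccl4, Ccl2, Ccl7, Ccl1, Cxcl2 and Xcl1, and narrowly for Ccl9, and Control replicate 1 (circle) lay apart from the other Control libraries for Cxcl2, Ccl1, Ccl9, Ccl17 and Ccl22.

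Ccl3 and Ccl4, the macrophage inflammatory proteins, rose in all BSA libraries. Ccl3 (ENSMUSG00000000982, chr11:83647844-83649355) was at 394, 319.1 and 250.7 CPM in Control replicates 1 to 3, at 1784, 1757 and 1799 CPM in BSA, and at 430.5, 397.2 and 408.9 CPM in BSA + luteolin. All BSA values lay above all others, and the BSA + luteolin values lay just above the Control range. The rise from Control to BSA was 2.47 on the log2 scale (SE 0.18, edgeR adjusted p = 0.000735). Ccl4 (ENSMUSG00000018930, chr11:83662584-83664683) was at 35.82, 25.24 and 20.64 CPM in Control, at 489.2, 463.5 and 481.6 CPM in BSA, and at 84.81, 80.67 and 70.79 CPM in BSA + luteolin. Its groups did not overlap in any pair, and it rose by 4.13 (SE 0.23, edgeR adjusted p = 0.000201), 17.5-fold, the fourth largest log2 fold change among 11560 genes.

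The monocyte attractants Ccl2 and Ccl7 were among the most abundant of the 10 genes. Ccl2 (ENSMUSG00000035385, chr11:82035571-82037453) measured 476.6, 475.9 and 369.2 CPM in Control, 1776, 1749 and 1660 CPM in BSA and 636.5, 635.7 and 647 CPM in BSA + luteolin. Ccl7 (ENSMUSG00000035373, chr11:82045712-82047525) measured 148.9, 166.8 and 107.3 CPM in Control, 1605, 1471 and 1447 CPM in BSA and 514.4, 508.8 and 489.1 CPM in BSA + luteolin. For both, the 3 groups were separate in order from Control to BSA + luteolin to BSA. Ccl2 rose by 1.97 (SE 0.14, edgeR adjusted p = 0.000633) and Ccl7 by 3.42 (SE 0.19, edgeR adjusted p = 0.000201) on the log2 scale.

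Ccl1, which binds Ccr8 on T cells, started low. It was at 7.49, 2.81 and 2.39 CPM in Control, at 72.53, 59.36 and 76.46 CPM in BSA and at 23.78, 22.11 and 20.21 CPM in BSA + luteolin (ENSMUSG00000020702, chr11:82176657-82305690). The Control values spread most relative to their mean, with an SD of 2.84 CPM on a mean of 4.23, and replicate 1 was the highest of them. Ccl1 rose by 4 on the log2 scale (SE 0.43, edgeR adjusted p = 0.00419), 16-fold. The rise without Control replicate 1 was 4.73 (SE 0.16, edgeR adjusted p = 3.11e-11), and with that library as the only Control 3.19 (SE 0.17, edgeR adjusted p = 6e-08).

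Cxcl2, the neutrophil attractant, was at 239.8, 244.7 and 254 CPM in BSA and at 76.75, 75.69 and 83.12 CPM in BSA + luteolin (ENSMUSG00000058427, chr5:90903871-90905938). In Control it was at 85.07 CPM in replicate 1 and at 10.93 and 6.84 CPM in replicates 2 and 3. BSA lay above all Control libraries, but the log2 fold change of 2.82 had an SE of 0.88 and did not pass the threshold (edgeR adjusted p = 0.139). It passed with DESeq2 (adjusted p = 0.0476), with no filter (edgeR adjusted p = 0.00447) and with all 9 libraries in 1 fit (edgeR adjusted p = 0.044). Without Control replicate 1 it was 4.84 (SE 0.14, edgeR adjusted p = 3.72e-12), and with that library as the only Control 1.51 (SE 0.09, edgeR adjusted p = 1.36e-07).

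Ccl9 (ENSMUSG00000019122, chr11:83572919-83578636), also known as MIP-1γ, was high in every group. It was at 1134, 727.7 and 629.7 CPM in Control, at 1203, 1154 and 1164 CPM in BSA and at 1148, 1196 and 1073 CPM in BSA + luteolin. Control replicate 1 lay close to the stimulated libraries. The log2 fold change from Control to BSA was 0.49 (SE 0.22, edgeR adjusted p = 0.262), 0.74 (SE 0.08, edgeR adjusted p = 4.58e-06) without Control replicate 1, and 0.03 (SE 0.08, edgeR adjusted p = 0.786) with it alone.

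Ccl17 and Ccl22, the Ccr4 ligands that are better known from dendritic cells, were low, and their means were lower in BSA than in Control. Ccl17 (ENSMUSG00000031780, chr8:94810453-94812036) was at 2.92, 7.54 and 6.96 CPM in Control, at 2.53, 2.5 and 2.34 CPM in BSA and at 1.87, 2.51 and 2.03 CPM in BSA + luteolin. Ccl22 (ENSMUSG00000031779, chr8:94745590-94751699) was at 5.89, 29.21 and 30.36 CPM in Control, at 4.48, 7.4 and 6.63 CPM in BSA and at 5.69, 5.18 and 6.09 CPM in BSA + luteolin. For both genes Control replicates 2 and 3 were high, and Control replicate 1 was close to the stimulated libraries. The log2 fold changes from Control to BSA, -1.22 (SE 0.36) for Ccl17 and -1.81 (SE 0.56) for Ccl22, did not pass the threshold (edgeR adjusted p = 0.121 and 0.138). Without Control replicate 1 both passed, at -1.6 and -2.33 (edgeR adjusted p = 4.74e-05 and 7.37e-08), and with it alone they were -0.27 and 0.04 (edgeR adjusted p = 0.574 and 0.916).

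Xcl1 (ENSMUSG00000026573, chr1:164931644-164935527), lymphotactin, was too low for the filter of the reported test. Its counts were 3, 0 and 0 in Control, 37, 25 and 39 in BSA and 1, 8 and 10 in BSA + luteolin, so each BSA library held more than any other library. Summed over libraries, the BSA to Control ratio was 29.7 (95% interval from counting error 9.87 to 146), and BSA was at least 18.6-fold higher than Control replicates 2 and 3 with a floor of 3 counts over both. The ratio of BSA + luteolin to BSA was 0.176 (95% interval 0.102 to 0.29), and to Control 5.23 (1.54 to 27.6). The 3 Control counts came from replicate 1, and against replicates 2 and 3 BSA + luteolin was at least 3.28-fold higher with the same floor. The log2 ratio of mean CPM was 5.05 for BSA to Control, and 4.46 without Control replicate 2 or 3. It was -2.5 for BSA + luteolin to BSA, and -3.12 without BSA + luteolin replicate 3. For BSA + luteolin to Control it was 2.55, with 1.93 to 3.05 over the libraries left out, the lowest without BSA + luteolin replicate 3, the highest without BSA + luteolin replicate 1, and 1.96 without Control replicate 2 or 3. The 95% intervals do not cover the spread between samples. Xcl1 passed another filter, CPM above 1 in at least 3 libraries, through its BSA libraries alone. With it the log2 fold changes were 4.7 for BSA against Control (SE 0.78, edgeR adjusted p = 0.0267) and -2.47 for luteolin against BSA (SE 0.52, edgeR adjusted p = 0.00132). For luteolin against Control it was 2.27 (SE 1.24, edgeR adjusted p = 0.306). Since high BSA values let Xcl1 in, these values are a description.

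**Figure D2:**
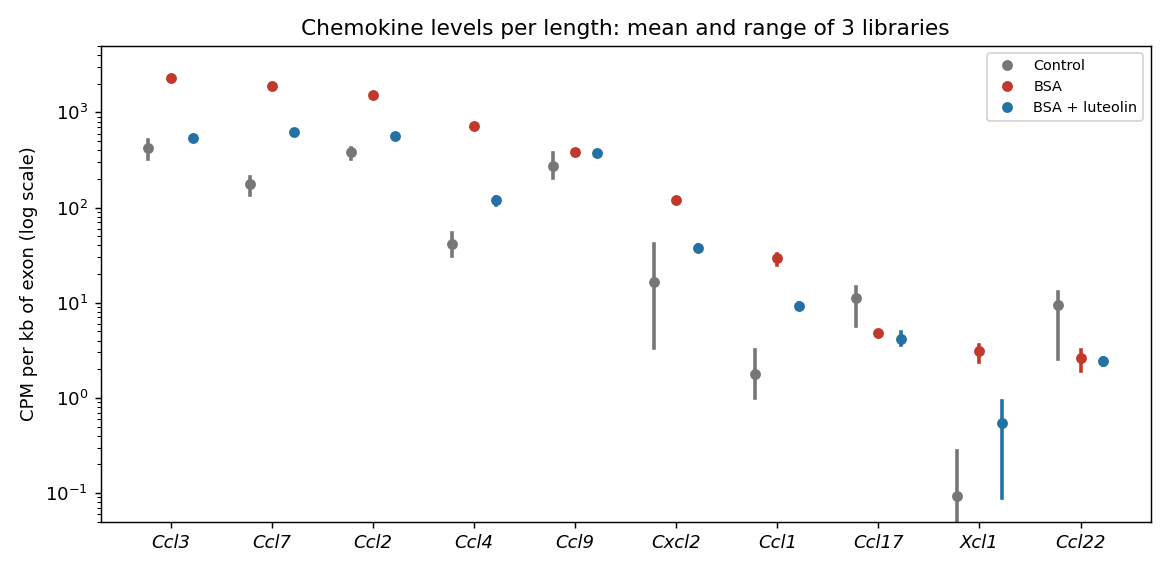
CPM per kb of exon for the 10 genes in Control, BSA and BSA + luteolin, on a log axis; points are means and lines the range of 3 libraries, cut below at 0.05. In BSA, Ccl3 was at 2323 CPM per kb, and Ccl22, Ccl17 and Xcl1 lay lowest.

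Levels between genes are compared per kb of annotated exon. For Ccl1 this length was 2369 bases. It included exons upstream of the RefSeq start, since the annotated gene reaches 82305690 and the promoter window begins at 82179813 (minus strand). A shorter length would place Ccl1 higher, so its places in the orders below are uncertain. In BSA the order was Ccl3 at 2323 CPM per kb, Ccl7 at 1882, Ccl2 at 1519, Ccl4 at 724.4, Ccl9 at 385.5, Cxcl2 at 119, Ccl1 at 29.32, Ccl17 at 4.78, Xcl1 at 3.08 and Ccl22 at 2.65. Only the neighbours Xcl1 and Ccl22 overlapped between libraries. In Control, Ccl3 at 419.4, Ccl2 at 387.1, Ccl9 at 272.8 and Ccl7 at 176 CPM per kb overlapped each with the next, and Ccl4 at 41.26 was below them. Cxcl2 at 16.58, Ccl17 at 11.3, Ccl22 at 9.39 and Ccl1 at 1.79 followed, where Ccl4 with Cxcl2 and each later pair of neighbours overlapped, and Xcl1 at 0.0931 CPM per kb lay below all. In BSA + luteolin the order began with Ccl7 at 629.3, then Ccl2 at 562.2 and Ccl3 at 538.1, which overlapped, then Ccl9 at 374.1, Ccl4 at 119.3, Cxcl2 at 37.97, Ccl1 at 9.3, Ccl17 at 4.16, Ccl22 at 2.43 and Xcl1 at 0.544 CPM per kb.

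**Figure D3:**
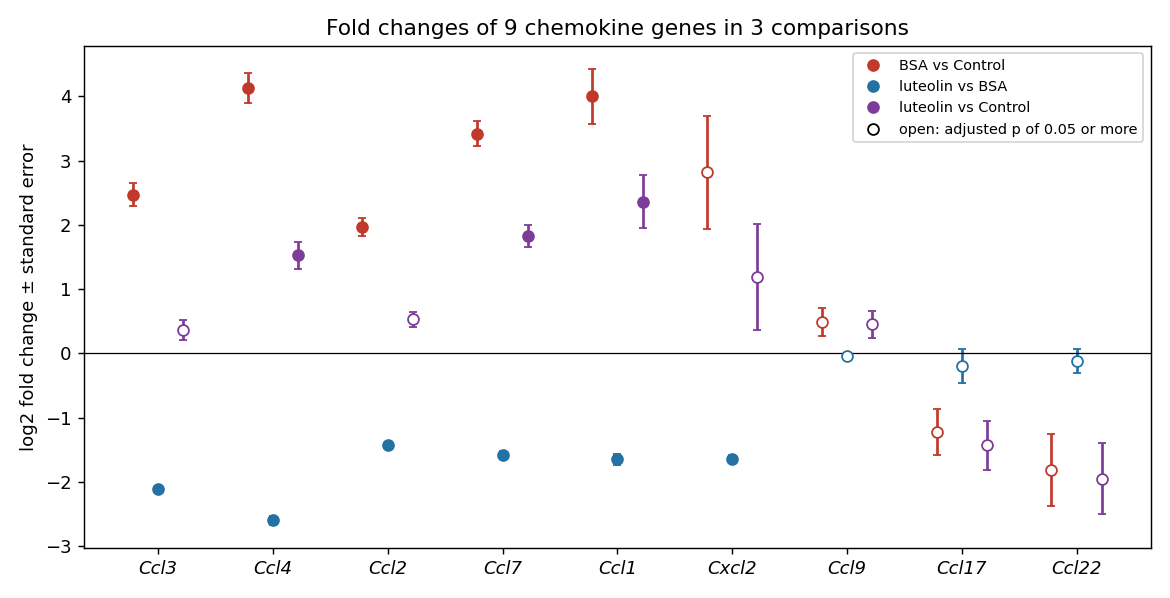
Log2 fold changes of the 9 tested genes in BSA against Control, BSA + luteolin against BSA, and BSA + luteolin against Control, with standard errors; open points did not pass the adjusted p of 0.05. Ccl3, Ccl4, Ccl2, Ccl7, Ccl1 and Cxcl2 fell with luteolin, while Ccl9, Ccl17 and Ccl22 lay near 0.

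Several of the chemokines had lower RNA levels in stimulated cells with luteolin than without. In BSA + luteolin against BSA, 6 of 9 tested genes passed as lower, against 21.9% of all genes tested, and 0 as higher, against 18.1%, with 0 higher also by unadjusted p under 0.05 (23.4% of all genes) and by DESeq2 (16.9%). Ccl4 fell most, by 2.6 on the log2 scale (SE 0.07, edgeR adjusted p = 1.11e-14), to 16.5% of the BSA mean. Ccl3 fell by 2.11 (SE 0.05, edgeR adjusted p = 8.96e-15) to 23.2%. Ccl1 and Cxcl2 fell by 1.65 each (SE 0.09 and 0.06, edgeR adjusted p = 3.18e-10 and 5.35e-13), to 31.7% and 31.9%. Ccl7 fell by 1.58 (SE 0.06, edgeR adjusted p = 5.33e-13) to 33.5%, and Ccl2 by 1.43 (SE 0.05, edgeR adjusted p = 6.06e-13) to 37%. The libraries of these 6 genes did not overlap between the 2 groups, which held for 26.2% of all genes tested with luteolin lower and for 24.2% with luteolin higher. The Xcl1 mean was at 17.7% of BSA, outside the reported test. The calls held in every leave-one-out, but with all 9 libraries in 1 fit Cxcl2 was no longer called (edgeR adjusted p = 0.199).

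Ccl9, Ccl17 and Ccl22 showed little difference between the groups with and without luteolin. Their log2 fold changes were -0.04 (SE 0.05), -0.2 (SE 0.26) and -0.12 (SE 0.19), with edgeR adjusted p = 0.576, 0.58 and 0.646, and the libraries of the 2 groups overlapped for all 3. The sign of Ccl9 turned with library size alone (0.07) and with upper-quartile factors (0.04), both close to 0.

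BSA + luteolin stayed above Control for some of the genes. Ccl1 was higher by 2.36 on the log2 scale (SE 0.41, edgeR adjusted p = 0.0336), Ccl7 by 1.83 (SE 0.17, edgeR adjusted p = 0.00622) and Ccl4 by 1.53 (SE 0.21, edgeR adjusted p = 0.016), so 3 of 9 passed, against 0.285% of all genes tested, and 0 passed as lower, against 2.75%, where 2 had an unadjusted p under 0.05 (14.9% of all genes) and DESeq2 called 2 (8.89%). Libraries did not overlap for 5 of 9 with BSA + luteolin higher, against 13.6% of all genes, and for 1 of 9 with it lower, against 14.9%. Ccl2 was at 0.53 (SE 0.12, edgeR adjusted p = 0.0691), Ccl3 at 0.36 (SE 0.16, edgeR adjusted p = 0.245), Ccl9 at 0.45 (SE 0.21, edgeR adjusted p = 0.25) and Cxcl2 at 1.19 (SE 0.83, edgeR adjusted p = 0.408), which did not pass. Ccl2 did pass with DESeq2 (adjusted p = 0.00345), with no filter (edgeR adjusted p = 0.0269), with all 9 libraries in 1 fit (edgeR adjusted p = 0.0143), without Control replicate 1 (edgeR adjusted p = 2.22e-05) and with that library alone (edgeR adjusted p = 0.00106). Ccl17 and Ccl22 were at -1.43 (SE 0.38) and -1.95 (SE 0.55), with edgeR adjusted p = 0.095 and 0.107. Leaving out Control replicate 1 gave -1.76 for Ccl17 and -2.41 for Ccl22 (edgeR adjusted p = 9.22e-06 and 1.3e-10), and using it alone gave -0.45 and -0.06 (edgeR adjusted p = 0.442 and 0.89). Ccl3 and Ccl9 were at 0.53 and 0.74 (edgeR adjusted p = 7.54e-05 and 4.4e-07) without that library and at 0.06 and 0.01 (edgeR adjusted p = 0.608 and 0.968) with it alone. The calls for Ccl1 and Ccl4 were lost without Control replicate 2 or 3 or any BSA + luteolin replicate, and that for Ccl7 without BSA + luteolin replicate 1 or 2 (edgeR adjusted p up to 0.168, 0.117 and 0.0708). Without Control replicate 1, 7 genes were higher and 2 lower, where 29.9% and 30.1% of all genes passed. Cxcl2 was then at 3.22 (edgeR adjusted p = 1.27e-11), and with Control replicate 1 alone at -0.12 (edgeR adjusted p = 0.403). Ccl1 was at 3.11 (edgeR adjusted p = 1.88e-10) without that library and at 1.56 (edgeR adjusted p = 1.12e-05) with it alone. Ccl4, Ccl7 and Ccl2 were at 1.79, 1.88 and 0.59 without it and at 1.14, 1.76 and 0.42 with it alone, and passed in both cases. In the latter choice 4 genes were higher and 0 lower, where 11.6% and 9.55% of all genes passed.

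**Figure D4:**
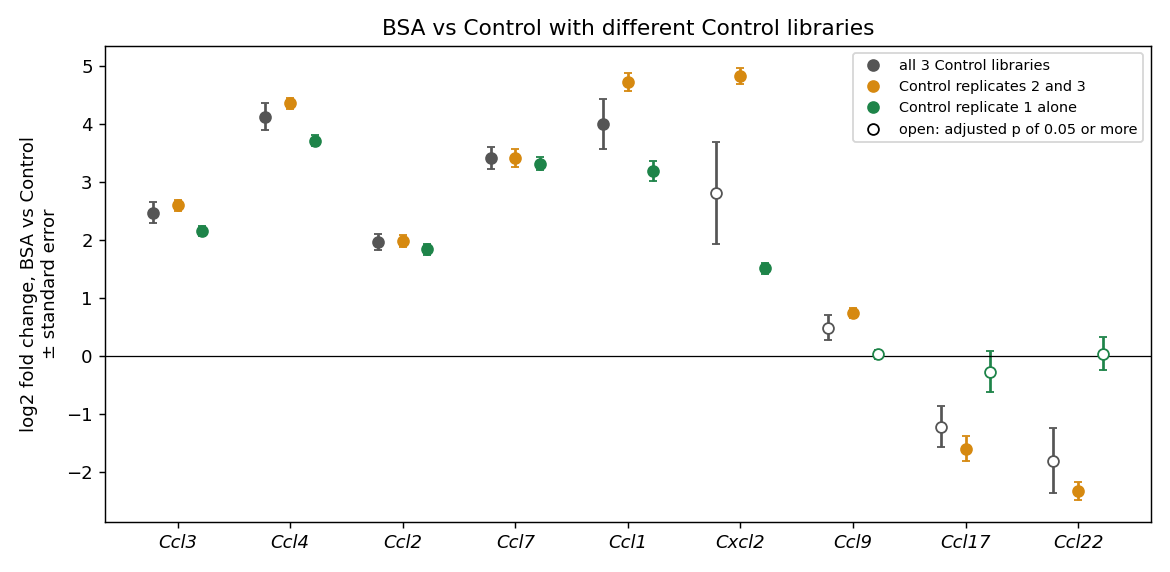
Log2 fold changes of the 9 tested genes in BSA against Control, with standard errors, with all 3 Control libraries, with Control replicates 2 and 3, and with Control replicate 1 alone; open points did not pass the adjusted p of 0.05. Ccl3, Ccl4, Ccl2, Ccl7 and Ccl1 stay above 1.8 in each, while Cxcl2 ranges from 1.51 to 4.84 and Ccl22 from 0.04 to -2.33.

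The choice of Control libraries changed which of the genes were called in BSA against Control. Ccl3, Ccl4, Ccl2, Ccl7 and Ccl1 were called under all 3 choices, with log2 fold changes of 2.6, 4.36, 1.98, 3.42 and 4.73 without Control replicate 1 and of 2.16, 3.72, 1.84, 3.32 and 3.19 with it alone. Without Control replicate 1, 7 of 9 genes were called higher and 2 lower, where 22.6% and 22.4% of all genes passed. With Control replicate 1 alone, 6 were called higher and 0 lower, where 23.1% and 19.2% passed. The lone library was assumed to vary like the others, and the neutrophil marker sums given above moved with these values; their part in the result was not tested.

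Other chemokine ligands numbered 30 in the count table, of which 8 passed the filter. By edgeR 0 of the 8 were called in BSA against Control, where 2.25% of all genes were higher and 1.02% lower. In BSA + luteolin against Control 0 were called, where 0.285% of all genes were higher and 2.75% lower. By unadjusted p under 0.05, 2 were higher and 1 lower in each of these comparisons. Over all genes 9.67% were lower in the former and 14.9% in the latter, and 2362 and 2653 of 11560 changed in either direction. DESeq2 called 1 of the 8 higher and 1 lower in the former, where it called 599 and 628 of 11560 genes. In the latter it called 1 lower, where 8.89% of all genes were lower. Without Control replicate 1, 5 were higher and 2 lower in BSA, where 22.6% and 22.4% of all genes passed. In BSA + luteolin 5 were then higher and 3 lower, where 29.9% and 30.1% of all genes passed. Ccl6, which binds Ccr1 and is abundant in myeloid cells, was at 1717 CPM in Control, 1889 in BSA and 2094 in BSA + luteolin, and was higher by 0.15 with luteolin (SE 0.05, edgeR adjusted p = 0.0284), a call lost without BSA replicate 1 or 3, without BSA + luteolin replicate 1 or 2, and with all 9 libraries in 1 fit (edgeR adjusted p up to 0.405). Cxcl1 and Cxcl3, neutrophil attractants like Cxcl2, fell by 1.22 (SE 0.16, edgeR adjusted p = 1.75e-05) and 0.53 (SE 0.07, edgeR adjusted p = 1.36e-05) with luteolin, calls that were lost with all 9 libraries in 1 fit (edgeR adjusted p = 0.0601 and 0.594). Cxcl3 was at 50.85, 8.61 and 6.96 CPM in Control, 55.8 to 59.84 in BSA and 37.71 to 41.17 in BSA + luteolin, with the same split of the Control libraries as Cxcl2. Cxcl10, an interferon-linked T cell attractant below the filter, was at 0.632, 2.73 and 0.312 CPM on average in Control, BSA and BSA + luteolin. Ccl5, Ccl25, Ccl27a, Cxcl16, Pf4, Ppbp and Cx3cl1 had group means of at most 8.39 CPM, and 8 of the 30 genes had no count in any library.

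**Figure D5:**
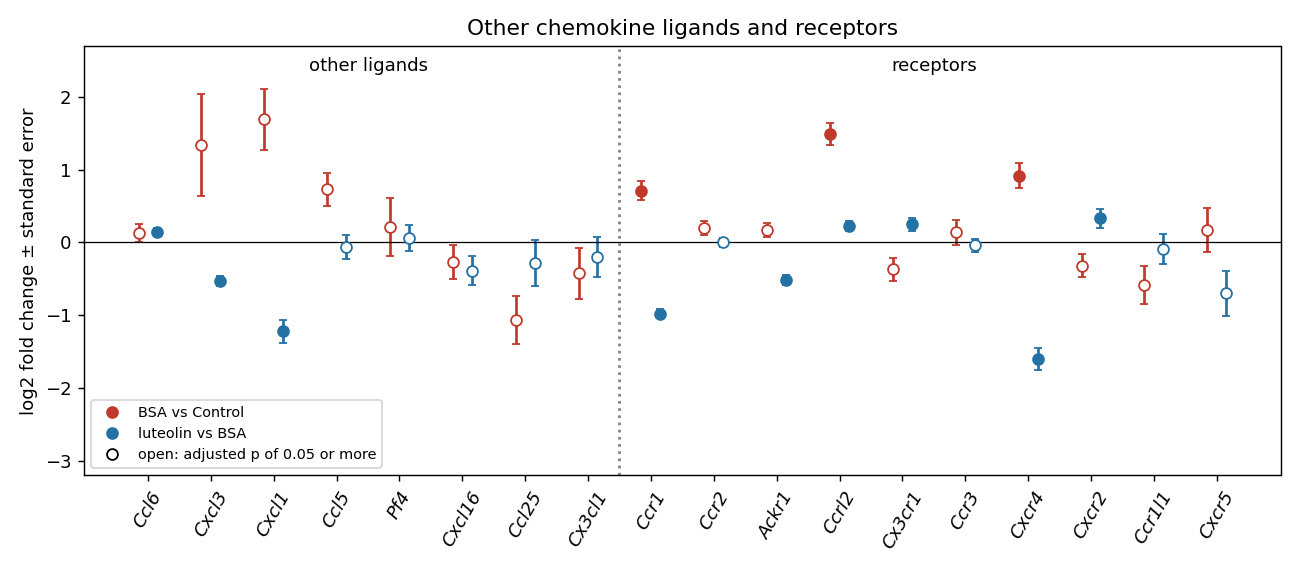
Log2 fold changes of the 8 other chemokine ligands and 10 of the 11 receptors that passed the filter, with standard errors, in BSA against Control and BSA + luteolin against BSA; open points did not pass the adjusted p of 0.05. Ccr1 and Cxcr4 went up in BSA and down with luteolin, and Ccrl2 went up in BSA.

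Receptors were also measured, 11 of 24 after the filter. In BSA against Control, 3 of the 11 were higher, against 2.25% of all genes tested. They were Ccrl2, a non-signalling receptor, by 1.49 (SE 0.15, edgeR adjusted p = 0.0033), Cxcr4, the receptor of Cxcl12, by 0.92 (SE 0.17, edgeR adjusted p = 0.0377), and Ccr1 by 0.71 (SE 0.13, edgeR adjusted p = 0.032). The calls for Ccr1 and Cxcr4 were lost with library size alone, with upper-quartile factors, with the replicate block, when any BSA replicate or Control replicate 3 was left out, and for Cxcr4 also without Control replicate 2 (edgeR adjusted p up to 0.205 for Ccr1 and 0.179 for Cxcr4). With luteolin against BSA, Cxcr4 fell by 1.6 (SE 0.15, edgeR adjusted p = 2.26e-07), Ccr1 by 0.98 (SE 0.06, edgeR adjusted p = 7.89e-10) and Ackr1, a scavenger of chemokines, by 0.52 (SE 0.07, edgeR adjusted p = 1.06e-05). Ccrl2, Cxcr2 and Cx3cr1 were higher by 0.23, 0.33 and 0.25 (SE 0.07, 0.13 and 0.09; edgeR adjusted p = 0.0142, 0.0458 and 0.0436), and Ccrl2 was also higher by 1.72 than in Control (edgeR adjusted p = 0.00552). Each of these 4 calls was lost in at least 1 leave-one-out, for Ccrl2 without BSA + luteolin replicate 2 (edgeR adjusted p = 0.0945 against BSA and 0.0667 against Control) and, against Control, also without BSA + luteolin replicate 1 (edgeR adjusted p = 0.0603). With all 9 libraries in 1 fit the calls against BSA for Ccrl2, Cxcr2 and Cx3cr1 were lost too (edgeR adjusted p = 0.278, 0.193 and 0.332). Among receptors known to bind members, Ccr1 had mean levels of 181.5, 297.1 and 150.4 CPM in Control, BSA and BSA + luteolin, Ccr2 196.4, 226.5 and 226.9, Ccr3, a receptor of Ccl7, 18.46, 20.25 and 19.72, and Cxcr2 12.57, 10.08 and 12.64 CPM. Ccr4, Ccr8 and Xcr1 had means of at most 0.154 CPM. Without Control replicate 1, 4 of the 11 receptors were also lower in BSA than in Control, against 22.4% of all genes. In BSA + luteolin 6 were then lower, against 30.1% of all genes. Ccr1l1, Ccr7 and Cxcr5 had means of at most 11.09 CPM.

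Among genes that are no chemokine, those whose log2 CPM over the 9 libraries followed the mean profile of the 9 tested members most closely were Tes, Tnf, Fam122a, Ctsc and Cdv3. Their Pearson correlations across the 9 libraries, which share depth and group, were 0.995, 0.992, 0.986, 0.986 and 0.984, given as a description. Tnf, the cytokine of acute inflammation, had means of 14.79 ± 6.07 CPM in Control, 758.7 ± 45.45 in BSA and 41.91 ± 4.45 in BSA + luteolin (SD, n = 3), and Ctsc, a lysosomal protease that activates mast cell granule proteases, 539.7 ± 110 CPM, 1395 ± 52.75 and 689.7 ± 27.31. Of the members, Ccl2, Ccl3, Ccl4 and Ccl7 correlated with the mean profile at 0.96 or more, Ccl1 at 0.93, Cxcl2 at 0.87, Ccl9 at 0.67, and Ccl17 and Ccl22 at -0.57 and -0.58.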

How the data were processed

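RNA from 9 BMMC libraries was sequenced by the authors with a stranded mRNA kit, filtered with HTStream and aligned with STAR 2.7.0f to mm10. The authors deposited raw counts per Ensembl gene, without normalization. The strand setting and annotation release of the counting are not given in the sources used here. Groups came from the labels. Gene names came from GENCODE M21 (47224 of 47643 identifiers matched), and 24256 genes had 0 counts throughout.

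The test was that of edgeR 4.0.16 in R 4.3.3 (TMM factors, quasi-likelihood test, two-sided, Benjamini-Hochberg adjustment, threshold 0.05), separately on the 6 libraries of each comparison, for genes with a median CPM above 1. SE was the log2 fold change divided by the root of F. Exact permutation of 3 against 3 libraries cannot go below 0.1. DESeq2 1.42.0 and limma 3.58.1 were alternatives, with other scalings, filters, the replicate block and each library left out. Use of Control replicate 1 alone was chosen after seeing the data. In data simulated on BSA against Control, the test recovered 56% of 200 genes changed 2-fold among 11560, and 0 of 200 changed 1.5-fold. Depth per library was 9515004 to 24605689 counts.

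The genes named are the 10 members, other chemokine ligands and receptors with a mean CPM of at least 1 in any group or that bind a member, marker lists beside results, and the 5 genes most like the members' mean profile. The values of 1 receptor are not reported here. The members and lists were chosen with earlier results of these data known.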

Additional observations from a re-analysis of the deposited data

How the results depend on the processing

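All directions and calls below come from edgeR unless named. For BSA against Control, the counts of all genes called (260 higher, 118 lower) were 173 and 295 with library size alone, 181 lower with upper-quartile factors, 599 and 628 with DESeq2, 406 and 198 with no filter, 674 and 431 with all 9 libraries in 1 fit, 127 and 17 with the replicate block, and 2675 and 2217 with Control replicate 1 as the only Control. Leaving out 1 library gave 87 to 2616 higher and 2 to 2591 lower, the highest without Control replicate 1. For luteolin against BSA (2097 higher, 2527 lower) they were 3856 higher with library size alone, 3267 higher with upper-quartile factors, 176 and 917 with all 9 libraries, and 1210 to 2305 higher without 1 library. For luteolin against Control (33 higher, 318 lower) they were 351 and 1028 with DESeq2, 100 and 693 with no filter, 359 and 892 with all 9 libraries, 13 and 199 with the replicate block, 1343 and 1104 with Control replicate 1 as the only Control, and 0 to 3456 higher and 2 to 3475 lower without 1 library.

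Members called lower than Control in BSA, 0 in the reported test, were 2 with DESeq2, 1 with no filter, 2 with all 9 libraries and 0 to 2 without 1 library. In luteolin against Control they were 2 with DESeq2, 2 with no filter, 2 with all 9 libraries and 0 to 2 without 1 library, and the 3 called higher became 0 to 7 without 1 library. Among other ligands in BSA against Control, 1 was called higher with DESeq2, limma-voom, CPM above 1 in 3 libraries, filterByExpr, all 9 libraries or Control replicate 1 alone, 2 with no filter, and 1 lower with DESeq2; without 1 library they were 0 to 5 higher and 0 to 2 lower. With luteolin against BSA, filterByExpr or no filter called 4 ligands lower, all 9 libraries 0 higher and 0 lower, and leaving out 1 library 0 to 1 higher. Against Control, DESeq2, no filter, all 9 libraries and Control replicate 1 alone called 1 ligand lower, and leaving out 1 library 0 to 5 higher and 0 to 3 lower. Receptors in BSA against Control were 1 higher with library size alone, upper-quartile factors or the replicate block, 1 lower with DESeq2, filterByExpr or no filter, and 1 to 3 higher and 0 to 4 lower without 1 library. Receptors with luteolin against BSA were 1 higher with DESeq2, 0 higher with all 9 libraries and 0 to 3 higher without 1 library, and against Control 2 lower with DESeq2 or all 9 libraries, 1 lower with Control replicate 1 alone, and 0 to 2 higher and 0 to 6 lower without 1 library.

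Signs turned for Ccl22 in BSA against Control with Control replicate 1 alone (0.04) and in luteolin against BSA without BSA replicate 2 (0.03, in a range of -0.31 to 0.03 over the libraries left out), for Ccl9 in luteolin against BSA with library size alone (0.07) and upper-quartile factors (0.04), and for Cxcl2 in luteolin against Control with Control replicate 1 alone (-0.12). The cause was not tested. Same-numbered libraries correlated on average at -0.0191 in BSA against Control, 0.145 in luteolin against BSA and 0.119 in luteolin against Control. At least 1 such pair was below 0.1 in each. Libraries with different numbers correlated at 0.0119, -0.0727 and -0.0651 in the same order. With 3 same-numbered pairs per comparison, these values cannot decide whether the numbers pair the samples. With the replicate block 5, 6 and 3 members were called, as without it. Over all genes in luteolin against BSA the block called 2639 higher and 2943 lower, against 2097 and 2527 without it. Xcl1 had at most 39 counts in a library.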
